A study of Mus musculus with 6 samples.

Results

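The genes described here are p53 and 9 genes tied to it, which act in growth arrest, in the repair of damage or in the control of p53 itself. They were chosen by symbol, as every probe set of the platform annotation that carries a single symbol and that symbol is one of the 10 genes. By this rule 9 of the 10 genes had 20 of the 45037 probe sets on the array. Trp53, the gene of p53, had 0 such probe sets and was not analysed here, so the values below are of its inhibitor Mdm2 and of 8 targets, Cdkn1a, Ccng1, Btg2, Gadd45a, Gadd45b, Zmat3, Phlda3 and Sesn1. RNA of neural stem cells, the dividing cells from which new neurons and glia come, was hybridised to 6 Affymetrix arrays. The young group held 3 arrays from C57BL/6JRj mice of 6 weeks and the old group 3 arrays from mice of this strain at 9 months. The labels name no allele or treatment in either group, and do not say whether replicates came from separate animals or cultures, nor how the cells were isolated or grown. The p-values thus take in just the scatter of these 6 samples, and that scatter may be technical.

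p53 is a transcription factor that is kept scarce by Mdm2, a ubiquitin ligase that marks it for destruction, and Mdm2 is itself a target, which closes a feedback loop. When DNA is damaged or a cell is stressed, p53 is released and switches on genes that halt the cell cycle, aid repair or lead to cell death. In the brain it restrains the self-renewal of neural stem cells. Its activity is set mostly at the protein level, which arrays do not read, and several of its targets also respond to growth factor and stress signals without it.

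p53 binds DNA at a pair of similar stretches of 10 letters each, called decamers here. Promoter windows of RefSeq on GRCm38.p6, 250 bases before to 50 bases after an annotated start, were found for 8 of the 9 measured genes, 10 windows in all, Zmat3 having none in the table used. The p53 decamer, which reads the same on both strands, lay in 5 of the 10 windows, against 8.36% of all 32851 windows. These 5 belonged to Cdkn1a, Ccng1, Gadd45a, Mdm2 and Sesn1. A pair of adjoining decamers with at most 1 of 20 letters off lay in 2 of the 10 windows, those of Cdkn1a and Ccng1, against 0.0883% of all windows. In Cdkn1a it began 51 bases before the more upstream of 2 annotated starts and matched in 19 of 20 letters. In Ccng1 it began 195 bases before the start and also matched in 19. The windows of Btg2, Gadd45b and Phlda3 held no decamer, which says only that these letters are not in these windows. The Btg2 window held TGACGTCA, the cAMP response element, a site of factors that act in immediate early induction, 166 bases before the start. That element lay in 1.79% of all windows and in 1 of the 10. The serum response element (1.63% of all windows) and the AP-1 site, TGACTCA or TGAGTCA (5.2% of all windows), lay in 0 of the 10. Both strands were covered, since each of these motifs either reads the same on both or was searched in both forms. A match of letters is a description and does not show binding. The sequences of Cdkn1a, Ccng1 and Btg2 are shown because the first pair holds the p53 element while the values of the genes moved apart, and because Btg2 had the largest fall. Each is the stretch before the gene, 5′ to 3′ on the gene's strand, from RefSeq on GRCm38.p6. Capitals mark the pair of decamers in Cdkn1a and Ccng1 and TGACGTCA in Btg2.
Cdkn1a chr17:29090729-29090978 (+ strand): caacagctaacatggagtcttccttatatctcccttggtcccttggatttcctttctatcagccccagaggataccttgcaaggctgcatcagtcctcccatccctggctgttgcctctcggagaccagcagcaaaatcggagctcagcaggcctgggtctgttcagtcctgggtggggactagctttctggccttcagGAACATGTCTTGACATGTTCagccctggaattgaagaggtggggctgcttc
Ccng1 chr11:40755310-40755536 (- strand): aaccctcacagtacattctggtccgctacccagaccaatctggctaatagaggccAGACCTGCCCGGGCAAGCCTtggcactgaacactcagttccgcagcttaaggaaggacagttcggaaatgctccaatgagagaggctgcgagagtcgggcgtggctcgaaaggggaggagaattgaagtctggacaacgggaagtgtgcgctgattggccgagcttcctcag
Btg2 chr1:134079156-134079405 (- strand): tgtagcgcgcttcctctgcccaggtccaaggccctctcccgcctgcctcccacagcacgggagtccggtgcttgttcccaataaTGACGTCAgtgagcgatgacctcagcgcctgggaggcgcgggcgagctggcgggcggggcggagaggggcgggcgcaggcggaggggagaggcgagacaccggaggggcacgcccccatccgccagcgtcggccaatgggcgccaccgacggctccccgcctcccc

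Old cells were set against young cells to ask which of these transcripts differ with age. They did not move as one. Btg2 was 2.92 to 4.19-fold lower in old cells at its 2 probe sets. Gadd45b was 2.25-fold lower at the 1 of its 3 probe sets that passed, the others being 1.92 and 1.3-fold lower without passing, while Ccng1 was higher by 1.44 to 3.02-fold and Gadd45a by 1.65-fold. Zmat3 was 1.48-fold lower. Cdkn1a, the classical arrest target, and Mdm2 were lower by less than 1.4-fold, each called at 1 probe set and not at the other tested one. The Cdkn1a call was lost without any single array, and the Mdm2 call without any single array other than old replicate 3. Phlda3 and Sesn1 did not pass. Values are the deposited log2 levels, so a difference of 1 is a 2-fold change. Log2 4 stands in for background, and probe sets above it on at least 3 of the 6 arrays were tested. Of the 20 probe sets 18 were above it, covering all 9 genes. By limma with Benjamini-Hochberg adjustment over all 19858 tested probe sets, at a threshold of 0.05, 4 of the 18 were higher and 6 lower in old cells, or 55.6% in all. Over all tested probe sets 20.1% were called higher and 16.5% lower, 36.6% in all. The ages did not overlap for 16 of the 18, or 88.9%, against 55.3% of all. A change of at least log2 1 was seen in 5 of the 18, or 27.8%, against 12.4% of all, and these 5 were of Ccng1, Btg2 and Gadd45b alone. Probe sets of one gene are not separate genes. By the brightest probe set of each of the 9 genes, 2 genes were higher, 4 lower and 3 did not pass. Over all 10050 tested genes 22.0% were higher and 18.5% lower. The median change was -0.20 against 0.01 for all tested probe sets, and the median size of change, with the sign dropped, 0.46 against 0.25.

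**Figure D1:**
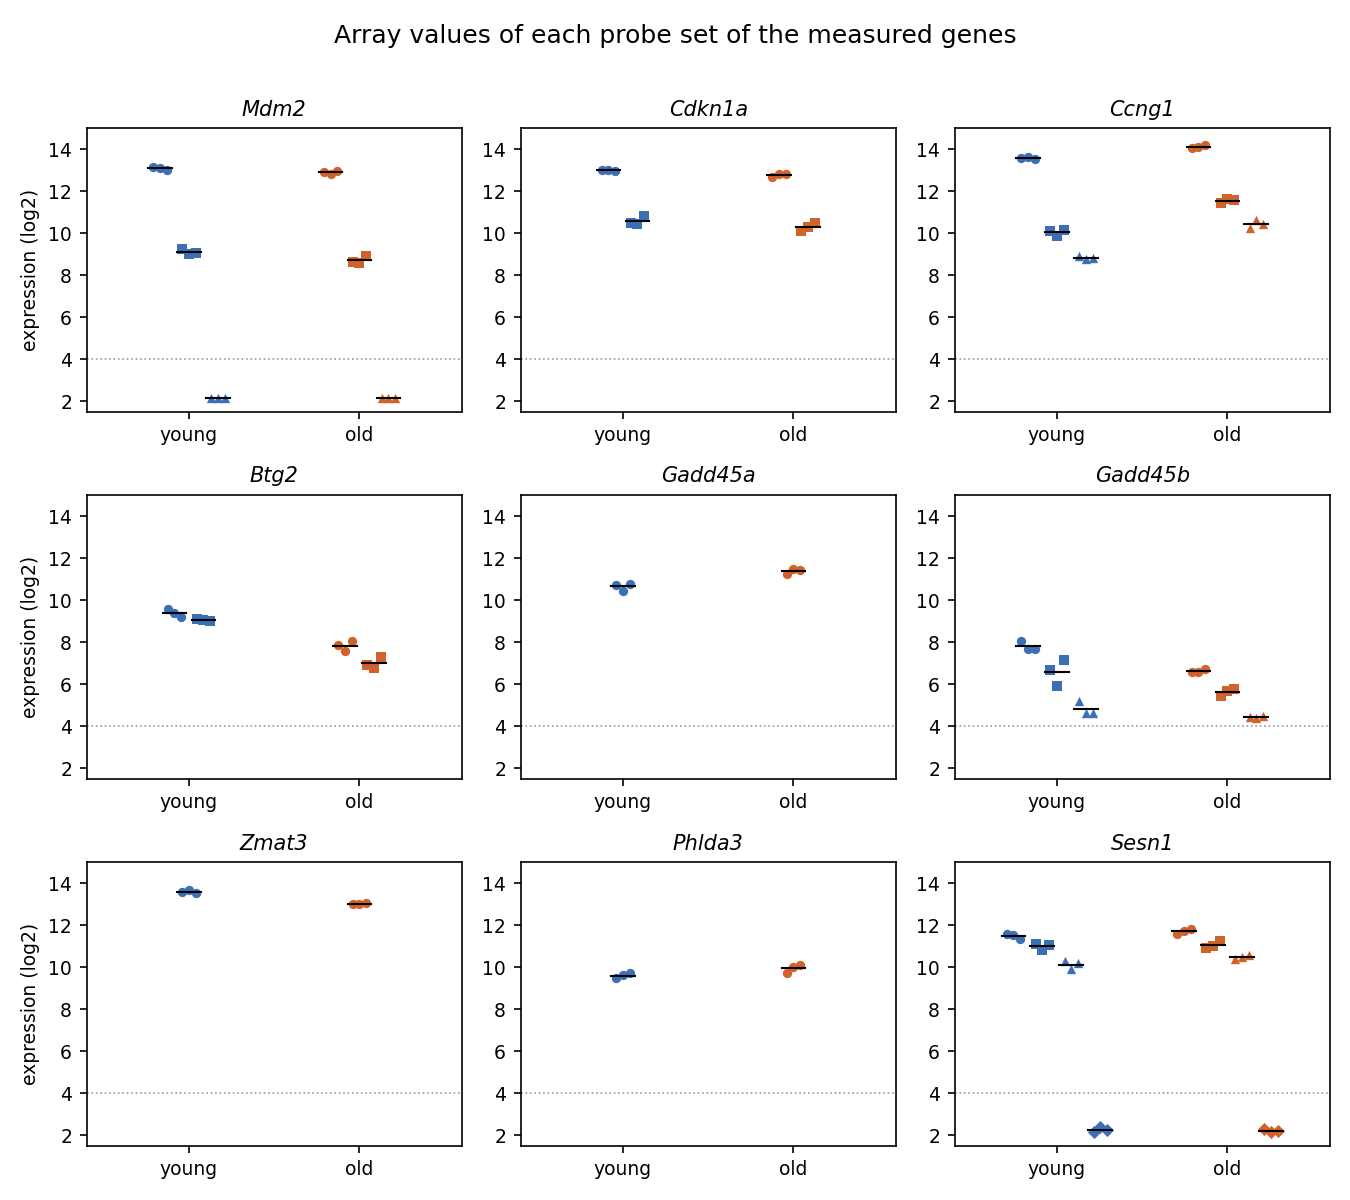
Deposited expression level (log2, vertical axis) of each probe set of the 9 measured genes on the 3 young (blue) and 3 old (orange) arrays; each marker shape is a probe set, each point an array, each bar a group mean, and the dotted line log2 4. The old points of Btg2 lie below the young ones and those of Ccng1 above them at every probe set, while a probe set of Mdm2 and one of Sesn1 stay under log2 4 on all arrays.

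Some values of the whole series run along with every difference given here, because all of them compare the same 6 arrays. The 18 hybridisation control probe sets, which read RNA added to each array, averaged log2 13.24 ± 0.285 on the young and log2 12.28 ± 0.0984 on the old arrays (± SD, n = 3 each). They were thus -0.96 apart, old minus young (two-sided exact permutation test, p = 0.1, and no smaller p is possible with 3 against 3). The actin control at the 3′ end minus that at the 5′ end, a sign of RNA quality, was 0.57, 0.65 and 0.62 in young and 0.67, 0.67 and 0.73 in old arrays (log2), without overlap (p = 0.1 in the same exact permutation test). The same measure of Gapdh overlapped, at 0.32 to 0.35 in young and 0.32 to 0.41 in old arrays. Of 12 tested markers of neural stem cells 1 rose and 4 fell. The largest fall was that of Hes5, a target of Notch, from 7.91, 7.91 and 7.52 to 2.73, 2.42 and 2.14, at least 13.7-fold against log2 4 (limma adjusted p = 5.56e-05). Egfr (-0.40), Sox9 (-0.35) and Nes (-0.46) fell by less, Msi1 rose by 0.52, and Prom1 lay under log2 4 on all arrays. Sox2, Fabp7 and Vim did not pass and lay above 13 on all arrays. The summed level of the list, led by Vim and Fabp7, was 16.88 to 16.92 in young and 16.80 to 16.81 in old arrays. Of 7 astrocyte markers 4 rose and 1 fell, with a summed level of 14.72 to 14.75 in young and 15.06 to 15.19 in old arrays. That sum was led by Aldoc, which did not pass, and Gja1, which rose by 1.36. Gfap did not pass. The 1 that fell was Slc1a2 (change -0.64), and its dimmer probe sets did not pass. Its call was lost without any array other than old replicate 2 (limma adjusted p from 0.0631 to 0.0941). Of 6 tested markers of neurons and neuroblasts 4 fell and 1 rose, with a median change of -2.15. Tubb3, the tubulin of young neurons, had 9.62, 9.30 and 9.58 in young and 4.06, 3.46 and 3.98 in old cells (change -5.67, limma adjusted p = 4.64e-05). Neurod1, a factor of neuronal differentiation, was at least 16.6-fold lower against log2 4 (limma adjusted p = 0.000121), and Elavl3 had a change of -3.17 (limma adjusted p = 0.00367). Dcx, the classical neuroblast marker, had 5.36, 5.03 and 3.17 in young cells and 2.14 on all old arrays, and was not tested because it lay under the filter. Snap25 also fell (-1.13), and Gad1 rose by 1.58 (limma adjusted p = 0.00456). The Snap25 call was lost without young replicate 1, old replicate 2 or old replicate 3 (limma adjusted p from 0.0505 to 0.0615). The summed level of this list, 13.87 to 13.90 in young and 13.86 to 13.89 in old arrays, was set by Map2, which read 13.68 to 13.75 in young and 13.81 to 13.86 in old arrays, and does not show these falls. Of 4 tested markers of the oligodendrocyte lineage 2 fell, at a summed level of 14.15 to 14.25 in young and 14.20 to 14.30 in old arrays. That sum was set by Olig1 and Olig2, which did not pass. It does not show the falls of Cspg4 (change -1.99) and Pdgfra (change -1.44). Of 4 tested ependymal markers 3 rose and 1 fell, at a summed level of 8.48 to 8.74 in young and 8.96 to 9.17 in old arrays. The 1 that fell was Ccdc153. Its call was lost without young replicate 3, old replicate 1 or old replicate 2 (limma adjusted p from 0.064 to 0.0664). Of the markers of microglia 9 of 10, of endothelial cells 6 of 7, and of pericytes and fibroblasts 7 of 9 lay under log2 4 on all arrays, as did all 4 of the choroid plexus and both measured markers of blood. The few above it were Cd68 of microglia, which did not pass, and Flt1, Acta2 and Pdgfra, which fell. The Acta2 call was lost without any array other than old replicate 3 (limma adjusted p from 0.059 to 0.124). The summed levels were 5.64 to 5.83 in young and 5.93 to 6.76 in old arrays for microglia, 6.66 to 6.86 and 5.72 to 6.19 for endothelial cells, and 8.90 to 9.32 and 7.38 to 8.04 for pericytes and fibroblasts. The last sum was led by Pdgfra, with means of 8.62 in young and 7.18 in old cells. Pdgfra is also 1 of the 2 that fell in the oligodendrocyte lineage list, so that sum does not show a fall of pericytes or fibroblasts. The part of all these differences in the results below was not tested. In a bulk sample, fewer cells of a type and less RNA per cell cannot be told apart.

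Mdm2, on chromosome 10, is the ligase that holds p53 down. At its brightest probe set, 1423605_a_at, the young arrays had 13.15, 13.08 and 13.01 and the old arrays 12.90, 12.82 and 12.95 (log2). Every old array lay below every young one, by a gap of 0.06. The change of -0.19 (SE 0.0619, 95% interval -0.35 to -0.04) did not pass in limma (adjusted p = 0.0613). At the dimmer 1427718_a_at the values were 9.25, 9.02 and 9.05 in young and 8.64, 8.56 and 8.93 in old cells. That change, -0.40 (SE 0.12), passed narrowly (limma adjusted p = 0.0499). The call held on leaving out old replicate 3 (change -0.51, adjusted p = 0.0259), while without any other single array the adjusted p was 0.0693 to 0.136. It was also lost with all probe sets tested (limma adjusted p = 0.163). With each array centred on its median the brightest probe set passed as well (change -0.20, adjusted p = 0.0415). It also passed with the trend and robust options of eBayes (limma adjusted p = 0.0116). The third probe set, 1457929_at, was listed at 2.14, the lowest value of the table, on all 6 arrays. Both measured probe sets thus had the same sign, and the larger of the changes was 1.32-fold (95% interval 1.07 to 1.62-fold).

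Cdkn1a, on chromosome 17, encodes p21, which binds cyclin-dependent kinases and halts the cell cycle. At 1424638_at the young arrays read 12.99, 12.98 and 12.97 and the old arrays 12.69, 12.81 and 12.83 (log2). The old arrays were all lower, and the young arrays hardly differed from each other (SD 0.0113, against 0.0757 in old cells, n = 3). The change was -0.21 (SE 0.0549), or 1.15-fold lower (95% interval 1.05 to 1.27-fold), and passed in limma (adjusted p = 0.0352). Without any 1 of the 6 arrays it did not pass (adjusted p from 0.0613 to 0.0835), nor with all probe sets tested (adjusted p = 0.058). The other probe set, 1421679_a_at, had 10.50, 10.45 and 10.80 in young and 10.11, 10.30 and 10.49 in old cells, and here the ages overlapped. Its change of -0.29 (SE 0.138) did not pass (limma adjusted p = 0.16). Its 95% interval, -0.63 to 0.06, leaves room for a fall of up to 1.55-fold and for a rise of up to 1.04-fold. Among the 10049 other tested genes, those whose 6 values, after subtracting each gene's own mean, came closest to Cdkn1a were Msmo1 (summed squared difference 0.00392), Commd1 (0.00447) and Txndc9 (0.00459). Their changes were -0.23, -0.21 and -0.18.

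Ccng1, on chromosome 11, encodes cyclin G1, a partner of a phosphatase that acts on Mdm2. It was higher in old cells at each of its 3 probe sets. At 1450017_at the young arrays had 10.10, 9.88 and 10.15 and the old arrays 11.42, 11.62 and 11.56 (log2), a gap of 1.27 between the ages. The change of 1.49 (SE 0.0975) was 2.81-fold (95% interval 2.38 to 3.33-fold, limma adjusted p = 0.000395). At 1450016_at the values were 8.90, 8.76 and 8.81 in young and 10.22, 10.61 and 10.43 in old cells, a change of 1.59 (SE 0.11, limma adjusted p = 0.000462). At the brightest probe set, 1420827_a_at, they were 13.57, 13.64 and 13.54 in young and 14.04, 14.11 and 14.18 in old cells. The change there was only 0.52 (SE 0.0588), or 1.44-fold, and its 95% interval, 0.37 to 0.67, lay below those of the other probe sets, 1.25 to 1.74 and 1.32 to 1.87. It passed all the same (limma adjusted p = 0.00223). The size of the rise therefore depended on the probe set, and its direction did not. The brightest probe set lay closest to the top of the scale, at up to 14.18 where the highest value of the table was 15.61. Whether its level has a part in its smaller change was not tested. Of all 19858 probe sets ranked by their rise, 1450016_at and 1450017_at lay in the top 3.34% and 3.69%. All 3 calls held on leaving out any 1 array (adjusted p at most 0.0134).

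Btg2, on chromosome 1, slows the passage from G1 into S phase, recruits the machinery that removes poly(A) tails, and marks neural progenitors that are about to divide into neurons. It fell the most of the 9 genes. At 1416250_at the young arrays had 9.11, 9.05 and 8.98 and the old arrays 6.89, 6.79 and 7.27 (log2). The ages were separated by 1.72, well beyond the spread within young (SD 0.0632) or old cells (SD 0.249, n = 3). The change of -2.07 (SE 0.133) was 4.19-fold lower (95% interval 3.33 to 5.28-fold, limma adjusted p = 0.000376). At 1448272_at the young arrays had 9.57, 9.39 and 9.18 and the old arrays 7.88, 7.58 and 8.04, a change of -1.55 (SE 0.154) or 2.92-fold lower (95% interval 2.24 to 3.82-fold, limma adjusted p = 0.0015). Both calls held on leaving out any 1 array (adjusted p at most 0.0085). In the order of all tested probe sets by their fall, they lay in the first 2.19% and 3.21%. The neuroblast markers Tubb3, Neurod1 and Elavl3, given above, fell on the same old arrays. Snap25 of the same list fell as well, while Gad1 rose by 1.58. Map2 did not pass at its brightest probe set (change 0.12, limma adjusted p = 0.0857). At its dimmer probe sets the changes were 0.46, which passed, and 0.30, which did not (limma adjusted p = 0.0138 and 0.117). The part of these markers in the fall of Btg2 was not tested. The sister gene Btg1 had changes of 0.00, -0.04 and -1.39 at its 3 tested probe sets, of which 0 passed in limma (adjusted p = 0.984, 0.567 and 0.0623).

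**Figure D2:**
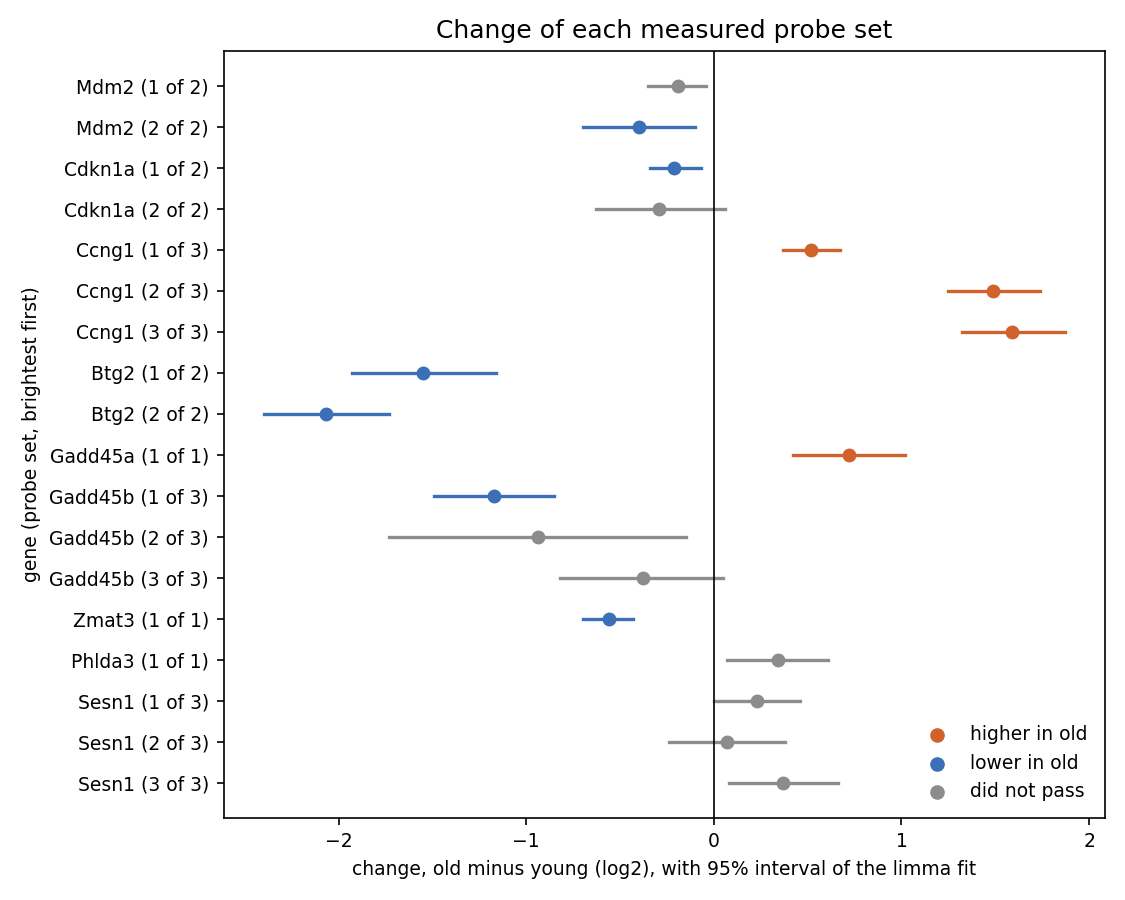
Change from young to old (log2, horizontal axis) of the 18 probe sets above the filter, brightest first within a gene; points are limma estimates, lines their 95% intervals, and colour shows whether the adjusted p was under 0.05. The Btg2 and Gadd45b points lie left of 0 and the Ccng1 and Gadd45a points right of it, while Mdm2, Cdkn1a, Phlda3 and Sesn1 lie within 0.40 of 0.

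Gadd45a and Gadd45b are sister genes that encode small proteins of the stress response. They bind PCNA, p21 and a kinase that feeds the p38 and JNK pathways, and act in DNA demethylation. Gadd45a, on chromosome 6, is the direct p53 target of the family. Its single probe set, 1449519_at, had 10.74, 10.45 and 10.78 in young and 11.22, 11.46 and 11.45 in old cells (log2). All old arrays lay above all young ones, with a change of 0.72 (SE 0.118), 1.65-fold (95% interval 1.34 to 2.02-fold, limma adjusted p = 0.00754). The call held on leaving out any 1 array (adjusted p at most 0.0333).

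Gadd45b, on chromosome 10, is known more as a target of NF-kappaB, TGF-beta and neuronal activity. At its brightest probe set, 1450971_at, the young arrays had 8.07, 7.69 and 7.65 and the old arrays 6.58, 6.60 and 6.71 (log2). The change was -1.17 (SE 0.127), 2.25-fold lower (95% interval 1.81 to 2.81-fold, limma adjusted p = 0.00194), and held on leaving out any 1 array. At 1420197_at the young arrays were scattered, at 6.68, 5.92 and 7.13, against 5.44, 5.69 and 5.76 in old cells. The change of -0.94 (SE 0.315) did not pass (limma adjusted p = 0.0665). Without young replicate 2, the lowest of the 3, it was -1.27 and passed (adjusted p = 0.00898). It also passed with array weights and with the trend and robust options of eBayes (limma adjusted p = 0.0168 and 0.0335). The dimmest probe set, 1449773_s_at, had 5.21, 4.62 and 4.63 in young and 4.44, 4.41 and 4.46 in old cells, near background, and did not pass (change -0.38, limma adjusted p = 0.139). The old arrays lay below the young ones at all 3 probe sets.

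The difference between the sisters was tested by itself, on the value of Gadd45b minus that of Gadd45a on each array, by the brightest probe set of each. It was -2.67, -2.76 and -3.12 on the young and -4.64, -4.86 and -4.74 on the old arrays, and the ages did not overlap. The change of Gadd45b minus that of Gadd45a was thus -1.89 on the log2 scale, with p = 0.1 in the same exact permutation test. With the mean of all tested probe sets of each gene it was -1.55, with the same p (exact permutation test). Both outcomes were fixed in advance, since all old arrays lay above the young ones for Gadd45a and below them at each Gadd45b probe set. The ages then had to separate and the p to be the smallest possible. The test thus adds nothing beyond the size of the difference. The third sister, Gadd45g, went with Gadd45b. Its young arrays had 11.03, 10.95 and 11.18 and its old arrays 9.68, 9.41 and 9.64 (log2), a fall with a change of -1.48 (limma adjusted p = 0.000467).

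Zmat3, on chromosome 3, encodes a zinc finger protein that binds RNA, shapes splicing and steadies messages rich in AU elements. Its probe set 1449353_at had 13.57, 13.66 and 13.51 in young and 13.01, 13.01 and 13.04 in old cells (log2). The old arrays were lower and nearly equal to each other (SD 0.0162, n = 3). The change of -0.56 (SE 0.0543) was 1.48-fold lower (95% interval 1.34 to 1.62-fold, limma adjusted p = 0.00135) and held on leaving out any 1 array (adjusted p at most 0.00953).

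Phlda3, on chromosome 1, encodes a small protein with a PH domain that blocks the kinase Akt at the membrane. Its probe set 1449002_at had 9.48, 9.61 and 9.70 in young and 9.74, 9.98 and 10.08 in old cells (log2). The old arrays were all higher, though by a gap of only 0.05. The change of 0.34 (SE 0.107, 95% interval 0.07 to 0.61) did not pass (limma adjusted p = 0.0587), and passed without old replicate 1 (change 0.43, adjusted p = 0.0285). Phlda1, a sister gene, fell from 12.49 ± 0.089 to 11.52 ± 0.0557 (log2, SD, n = 3, limma adjusted p = 0.000433).

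Sesn1, on chromosome 10, encodes sestrin 1, which restrains the growth kinase complex mTORC1 and limits oxidative damage. Of its 4 probe sets, 3 were above the filter and 0 passed in limma, of which 1 had an unadjusted p under 0.05. With the trend and robust options of eBayes 2 of them passed (adjusted p = 0.0246 at 1454699_at and 0.0484 at 1438931_s_at). The one nearest to the threshold, 1454699_at, had 10.27, 9.89 and 10.17 in young and 10.38, 10.48 and 10.59 in old cells (log2), a change of 0.37 (SE 0.116, 95% interval 0.08 to 0.66, limma adjusted p = 0.0554). It passed without young replicate 1 (change 0.45, adjusted p = 0.0466), and also with the filter at log2 6, after quantile normalization or median centring, and with array weights (adjusted p from 0.0443 to 0.0479). At 1438931_s_at the values were 11.55, 11.52 and 11.35 in young and 11.56, 11.73 and 11.81 in old cells, a change of 0.23 (limma adjusted p = 0.106). At 1433711_s_at they were 11.10, 10.80 and 11.05 in young and 10.92, 11.00 and 11.25 in old cells, and the ages overlapped (change 0.07, 95% interval -0.24 to 0.38, limma adjusted p = 0.676). The fourth, 1444376_at, stayed between 2.14 and 2.38 on all 6 arrays. Its sister Sesn3 rose from 11.82, 11.94 and 11.72 to 12.26, 12.27 and 12.28 (change 0.44, limma adjusted p = 0.00646), though its dimmer probe set did not pass (change 0.33, limma adjusted p = 0.0539).

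Some arrays recurred at the edge of their group. Over the 18 probe sets, old replicate 1 was the lowest old array for 13, old replicate 2 for 5 and old replicate 3 for 0. Young replicate 2 was the lowest young array for 9, young replicate 3 for 8 and young replicate 1 for 1. These 18 probe sets are of 9 genes, and the same counts were not taken over all tested probe sets. Whether the pattern is of the arrays or of these genes was thus not tested. The median SD within an age was 0.136 in young and 0.13 in old cells, against 0.119 and 0.0882 over all tested probe sets.

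The other genes of the pathway were taken as lists, each gene by its brightest tested probe set. Over all 10050 genes 22.0% rose and 18.5% fell, with a median change of 0.01. Of 21 tested regulators of p53, 1 rose and 5 fell, with a median of -0.13. Cdkn2a, whose p19Arf product blocks Mdm2 and whose p16 product blocks Cdk4 and Cdk6, had 11.16, 11.15 and 11.30 in young and 10.45, 10.40 and 10.62 in old cells (log2). All old arrays were lower (change -0.71, limma adjusted p = 0.00243). The gene had 1 probe set, and to which of its products the fall belongs was not tested. Wrap53, which is transcribed from the opposite strand beside Trp53, had a change of -0.82 (adjusted p = 0.00274 in limma). The kinase Hipk2, which phosphorylates p53, had one of -0.51 (limma adjusted p = 0.0132, and 0.051 without old replicate 3), and 5 of its 6 other tested probe sets fell as well. The phosphatase Ppm1d (-0.34) and the damage kinase Atr (-0.31) also fell, in calls that each held on leaving out only 1 of the arrays. Without the others, the adjusted p in limma was 0.0518 to 0.0934 for Ppm1d and 0.055 to 0.101 for Atr. Their dimmer probe sets had changes of -0.37 for Ppm1d, which passed, and -0.59 for Atr, which did not (limma adjusted p = 0.0444 and 0.198). The 1 that rose was Rchy1, a ubiquitin ligase of p53 (change 0.55, limma adjusted p = 0.00417). Mdm4, the partner of Mdm2, had changes of -0.01 and 0.21 at its 2 probe sets (limma adjusted p = 0.936 and 0.185), and the sister genes Trp63 and Trp73 were at 2.14 on all arrays.

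Of 11 tested targets that act in cell death, 4 rose and 1 fell, with a median of 0.05. Pmaip1, which encodes the death factor Noxa, had 10.20, 9.74 and 9.99 in young and 10.90, 10.92 and 11.03 in old cells (log2), a change of 0.97 (limma adjusted p = 0.00355). All old arrays lay above the young ones. Zfp385a, a zinc finger partner of p53, rose by 1.22 (limma adjusted p = 0.00847). Bid, a link between death receptors and mitochondria, rose by 1.06 (limma adjusted p = 0.0199), a call lost without any single old array (adjusted p = 0.0538, 0.0626 and 0.0707). Trp53inp1, a cofactor of p53, rose by 0.23 (limma adjusted p = 0.0186), and this did not pass when young replicate 3, old replicate 1 or old replicate 3 was left out (adjusted p = 0.0562, 0.0557 and 0.0591). Its dimmer probe set rose by 0.45 (limma adjusted p = 0.0133). The 1 that fell was Apaf1, the core of the apoptosome, singled out after its values were seen. It had a change of -0.26 (limma adjusted p = 0.0228), and without young replicates 1 or 2 or old replicates 2 or 3 the adjusted p was 0.0549 to 0.0785. Bbc3, which encodes Puma, was at 2.14 on all arrays.

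Of 27 tested targets in repair and metabolism, 11 rose and 6 fell, with a median of 0.27. Ak1, a kinase that balances adenine nucleotides, rose from 10.95, 10.69 and 10.81 to 12.79, 12.84 and 12.96 (log2, change 2.05, limma adjusted p = 0.000106). Bloc1s2, a subunit of a lysosome positioning complex, rose by 0.99 (limma adjusted p = 0.000331). Ptp4a3, a phosphatase, fell from 13.64, 13.66 and 13.68 to 11.97, 12.02 and 12.15 (change -1.61, limma adjusted p = 7.19e-05). Psrc1, a protein of the mitotic spindle, had a change of -1.70 (limma adjusted p = 0.000113), and its other probe sets had -2.21 and -3.62. For these 4 genes the ages did not overlap, and each call held on leaving out any 1 array.

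Of 14 tested sister genes of the members, 3 rose and 3 fell, with a median of -0.01. Besides Gadd45g and Phlda1, the third that fell was Ccng2, the sister of Ccng1. It went from 11.12, 10.93 and 10.96 in young to 10.22, 10.03 and 10.30 in old cells (log2, change -0.82, limma adjusted p = 0.0023), against the rise of Ccng1. The difference between the cyclins G was not tested by itself. Cdkn1b, which encodes the kinase inhibitor p27, had a change of -0.12 (limma adjusted p = 0.131) and at its dimmer probe set one of -0.41 (limma adjusted p = 0.00256). Cdkn1c, which encodes p57, was at 2.14 on all arrays.

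Of 11 tested cyclins, kinases and PCNA, which p21 binds, 5 fell and 1 rose, with a median of -0.21. Cdk6, the G1 kinase, had 8.25, 8.22 and 8.20 in young cells and 2.16, 2.14 and 2.14 in old cells (log2). It was thus at least 18.7-fold lower in old cells, set against log2 4 (limma adjusted p = 2.79e-07). Ccnd3 had a change of -0.64, Cdk4 of -0.34 and Cdk1 of -0.42 (limma adjusted p = 0.00396, 0.00639 and 0.0113). The S phase cyclin Ccna2 had one of -0.25 (limma adjusted p = 0.0254), and without any array other than old replicate 1 the adjusted p was 0.0505 to 0.0689. Its dimmer probe set had a change of -0.54 (limma adjusted p = 0.00667). The 1 that rose was Ccne2, singled out after its values were seen, by 0.56 (limma adjusted p = 0.0194). That call was lost without young replicates 2 or 3 or old replicates 1 or 2 (adjusted p from 0.0502 to 0.0676). The proliferation marker Mki67 had a change of -0.54 (limma adjusted p = 0.0331), lost without young replicate 3 or any single old array (adjusted p from 0.0554 to 0.103).

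**Figure D3:**
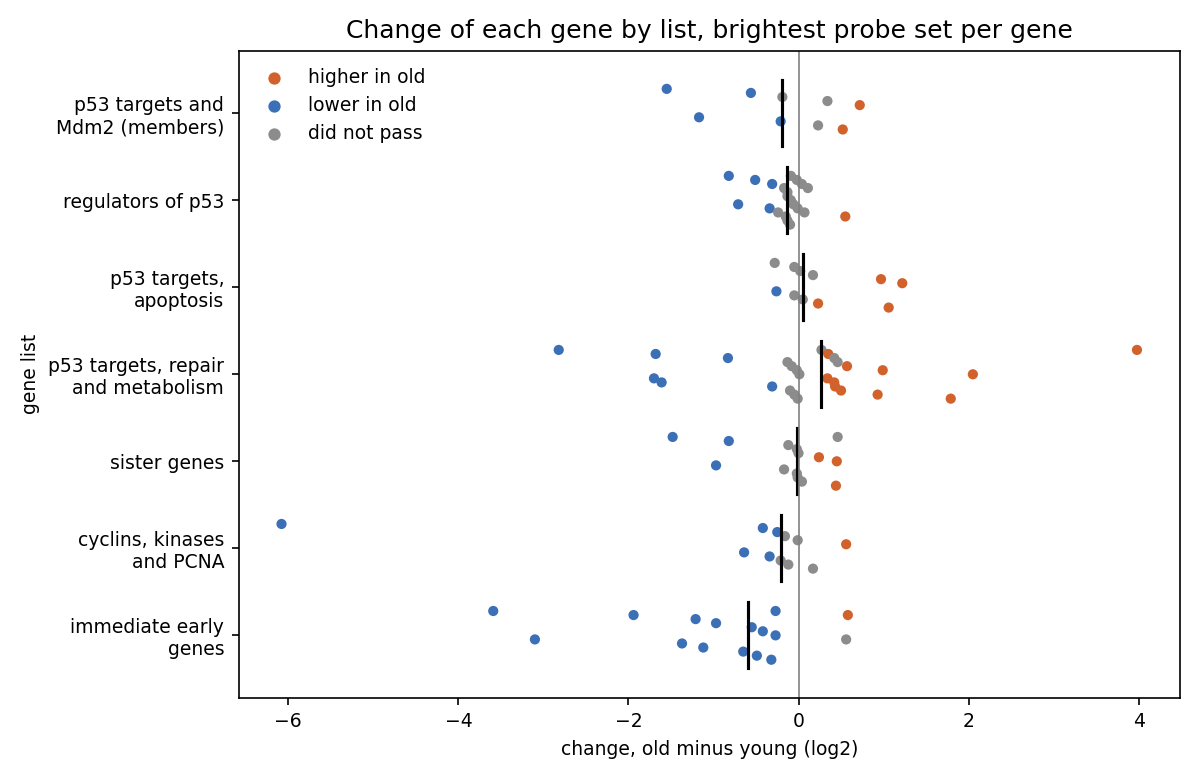
Change from young to old (log2, horizontal axis) of each tested gene by list, each point a gene by its brightest probe set, coloured by its call, with a black bar at the list's median; vertical offsets within a list carry no value. The immediate early genes lie mostly left of 0, at a median of -0.60, while the members and the p53 targets lie on both sides.

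Btg2 is also an immediate early gene, one of those that growth factors, activity or tissue handling induce within minutes, and so the genes of that response were taken as a further list. Of 16 tested immediate early genes, 14 fell and 1 rose, with a median of -0.60, against 18.5% falling over all genes. Fos, a part of the AP-1 factor, had 12.25, 12.13 and 12.35 in young and 10.97, 11.08 and 11.32 in old cells (log2). All old arrays were lower (change -1.12, limma adjusted p = 0.00143). Its relative Fosl2 had a change of -1.21 (limma adjusted p = 0.000143), the zinc finger factors Egr1 and Egr2 of -0.55 and -1.37 (limma adjusted p = 0.00244 and 0.00105) and the small Maf factor Maff of -1.94 (limma adjusted p = 0.00111). The nuclear receptor Nr4a1 had 4.84, 5.92 and 5.15 in young cells and 2.32, 2.14 and 2.14 in old cells, at least 2.47-fold lower against log2 4 (limma adjusted p = 0.00109). Of the 2 that did not fall, both singled out after their values were seen, Socs3 rose by 0.58 (limma adjusted p = 0.0204, with a change of 0.42 and 0.0656 at its dimmer probe set) and Klf4 had a change of 0.56 (limma adjusted p = 0.0662), with 1.78 at its dimmer probe set (limma adjusted p = 0.00338). The Socs3 call was lost without old replicates 2 or 3 (adjusted p = 0.0616 and 0.0584). Leaving out 1 array, 13 to 16 of the 16 passed. Another 8 genes of the list lay under the filter. The part of this response in the falls of Btg2 and Gadd45b was not tested.

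**Figure D4:**
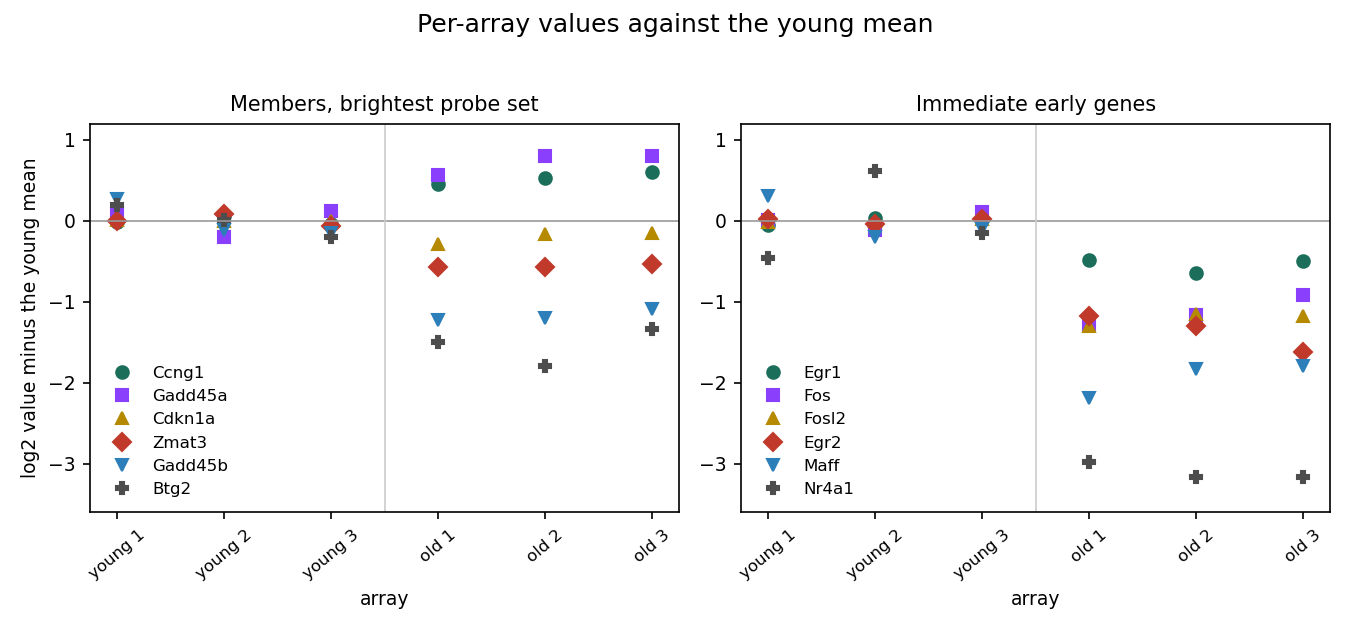
Log2 value minus the mean of the young arrays (vertical axis) on each of the 6 arrays (horizontal axis), for 6 members by their brightest probe set and for 6 immediate early genes; each point is 1 array. On all 3 old arrays Ccng1 and Gadd45a lie above the young mean, and Cdkn1a, Zmat3, Gadd45b, Btg2 and the 6 immediate early genes below it.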

How the data were processed

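Total RNA of 6 samples, 3 young and 3 old, was hybridised to arrays. Per the labels' protocols it was extracted with the NucleoSpin XS kit and labelled with the NuGEN Encore Biotin module. Each deposited value is the log2 level of a probe set, and the submitters' processing notes name GCRMA as the method of the authors. That method sets dim probe sets near one value, log2 2.14 here, which understates their spread. For its version and its chip definition the sources used here give nothing.

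Gene names came from the platform annotation, through Entrez identifiers and RefSeq gene names of GRCm38.p6. After 64 control probe sets were left out, 34945 had 1 symbol, 932 several and 9160 none. Those above log2 4 on at least 3 arrays, 19858, were tested by lmFit and two-sided eBayes tests of limma 3.58.1 (R 4.3.3), the p-values being adjusted over all of them by Benjamini-Hochberg, after a trial on simulated data. The spread had 4 residual and 1.47 prior degrees of freedom. The number of arrays limits the precision. Plots used matplotlib 3.10.9 (Python 3.11.15).

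The members and lists were chosen with earlier results of these data known. All probe sets of the members are given. Of each other list, up to 4 genes with the smallest adjusted p are named, with Mdm4, Cdkn2a, Cdkn1b, Cdkn1c, Gadd45g, Bax, Bbc3, Fos, Egr1 and Mki67, and the 3 genes closest to Cdkn1a. Bax had no probe set named here. Ppm1d, Atr, Apaf1, Btg1, Ccna2, Ccne2, Socs3, Klf4, Trp63, Trp73 and the markers beyond 4 per list were named after their values were seen.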

Additional observations from a re-analysis of the deposited data

How the results depend on the processing

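The calls for Ccng1, Gadd45a, Btg2, Zmat3 and the brightest probe set of Gadd45b held under every alternative run: no filter, filters at log2 4 on all 6 arrays or log2 6 on at least 3, quantile normalization again, median centring, array weights, a block for the replicate number, eBayes with trend and robust options, and leaving out each array. Over all tested members and these alternatives, 218 of 250 values kept their direction and side of the threshold, 15 passed newly, 15 no longer passed and 2 changed sign. The 2 that changed sign were Sesn1 at probe set 1433711_s_at, which was -0.02 without young replicate 2 and -0.03 without old replicate 3, within a range of -0.03 to 0.14 over single arrays left out. With eBayes trend and robust options 7 member probe sets were higher, in place of 4, with Phlda3 and 2 of Sesn1 added. On leaving out 1 array, 4 to 5 were higher and 4 to 5 lower. Over all probe sets the counts were then 2768 to 3961 higher and 2177 to 3301 lower, the lowest count of lower ones without old replicate 2. At a threshold of 0.01 they were 2148 higher and 1629 lower. Gadd45b minus Gadd45a ran from -2.03 to -1.80 without single arrays. Without the filter, 3 regulators of p53 passed in place of 6, and 3 targets in cell death in place of 5. The count of immediate early genes without single arrays, 13 to 16, was an alternative chosen after seeing the data. The cause of these moves was not tested. Whether the replicate numbers pair the samples could not be decided from so few correlations. The deviations of same-numbered arrays correlated at -0.16, -0.108 and 0.157 for replicates 1, 2 and 3. The highest correlations of these old arrays with a young array of another number were 0.249, 0.099 and 0.057. With the replicate number as a block, 5 member probe sets were higher and 4 lower, the call for Phlda3 being gained (adjusted p = 0.0326) and those for Cdkn1a (adjusted p = 0.0934) and Mdm2 (adjusted p = 0.0916) lost, and over all probe sets 3144 were higher and 2456 lower. Signal limits the dim probe sets, of which 2 of the members lay near the lowest value and were not called without the filter.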
